A study of Mus musculus with 11 samples.

Results

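The genes described here are 9 factors that shorten the life of mRNA or hold T cells in quiescence: Zfp36, Zfp36l1 and Zfp36l2 (the ZFP36 family), Zc3h12a and Zc3h12d (Regnase-1 and Regnase-4), Rc3h1 and Rc3h2 (Roquin-1 and Roquin-2), and Btg1 and Btg2. They were taken by symbol from the deposited gene count table. No measured value entered the rule, but earlier results of these data were known when the members were chosen. All 9 were among the 52997 genes of the table, and all 9 passed the filter on low counts that left 12932 genes for testing. The libraries came from vTreg53 TCR-transgenic Treg cells, which carry the receptor of 1 Treg clone from visceral adipose tissue (VAT). Donor Treg cells (vTreg53 Tg+, C57BL/6 background, CD45.2+, with a Foxp3-GFP reporter) were moved into CD45.1+ B6 male mice that kept their own T cells. Clonotype+ donor cells were later sorted from spleen and lymph nodes (Spl/LN) or from epididymal VAT, 1000 cells a library. Per the study's methods, 6 weeks after transfer the recipients were given complete Freund's adjuvant under the skin. A boost in incomplete Freund's adjuvant followed 1 week later, into the peritoneal cavity. The cells were sorted 1 week after that boost. The adjuvant held either no peptide (adjuvant alone) or Fat1562, a surrogate peptide agonist of the vTreg53 receptor (adjuvant/Fat1562). The sample labels give an age of 15 weeks for every library of both groups. They name the first group PBS and unimmunized, so the label and the methods differ on what the control mice received.

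There were 3 Spl/LN libraries from adjuvant alone, 3 Spl/LN libraries from adjuvant/Fat1562, 2 VAT libraries from adjuvant alone and 3 VAT libraries from adjuvant/Fat1562. Total counts ran from 4490242 to 6570057 a library. Foxp3, the lineage factor of Treg cells, was at 6747 to 10250 normalized counts in every library. The Treg markers (7 genes) summed to 28277 to 32676 in Spl/LN and to 39448 to 46090.5 in VAT. Foxp3, Ctla4 and Il2ra were higher in VAT in both conditions. Cd3e was lower in both (-0.26 and -0.23, log2), the first -0.30 without VAT library 2 from adjuvant alone. Cd3g was lower in VAT with adjuvant/Fat1562 (-0.29). With Fat1562, Cd3g and Cd4 rose in Spl/LN (0.48 and 0.50). In VAT Cd3g and Cd3e rose (0.37 and 0.30, and 0.32 and 0.34 without that library). Markers of macrophages (6 genes) summed to 17.2 to 114 normalized counts a library, those of neutrophils (3 genes) to 0 to 8.68, and those of adipocytes (5 genes) to 0.953 to 17.5. The B or plasma cell markers (7 genes) summed to 12209 to 18939 in Spl/LN, with Ighm as the main part, to 6597 to 8862 in VAT with adjuvant/Fat1562, and to 6957 and 40758 in the VAT libraries 1 and 2 from adjuvant alone. In that second library Igkc stood at 10320 and Jchain at 1731. The tissue difference of Ighm with adjuvant alone was 0.04 (log2) with that library and -1.48 without it. The B cell gene Ms4a1 stayed under 7 in all libraries. Cd79b, also of this list, was lower in VAT than in Spl/LN with adjuvant/Fat1562 (-1.18 ± 0.27, log2, SE; adjusted p = 0.00589, edgeR). Members called between the tissues with adjuvant alone, or with Fat1562 in VAT, are given with and without VAT library 2 from adjuvant alone. The same holds for the list calls named here that change without that library. Other estimates, and the counts over the members, use all libraries unless said otherwise.

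Some markers of other cells moved between groups. The stromal or endothelial markers (6 genes) summed to 495 to 590 in Spl/LN, to 251 and 305 in VAT with adjuvant alone and to 445 to 629 in VAT with adjuvant/Fat1562. Most of this was Pecam1, which rose with Fat1562 in VAT by 1.00 ± 0.17 (log2, SE; adjusted p = 0.00111, edgeR). The dendritic cell markers (5 genes) summed to 1076 to 1743 in Spl/LN, to 874 and 897 in VAT with adjuvant alone and to 1031 to 1382 in VAT with adjuvant/Fat1562. Most of this was Cd74, with a difference of 0.59 ± 0.12 with Fat1562 in VAT (adjusted p = 0.00622, edgeR, and 0.0534 without VAT library 2 from adjuvant alone). H2-Ab1 fell by 2.84 on the log2 scale with Fat1562 in Spl/LN. With adjuvant/Fat1562, Zbtb46 (1.61 ± 0.39, log2, SE; adjusted p = 0.00885, edgeR) and H2-Ab1 (1.92 ± 0.59; adjusted p = 0.0325) were higher in VAT than in Spl/LN. The CD8 or NK cell markers (4 genes) summed to 172 and 195 in VAT with adjuvant alone and to 95.7 to 152 elsewhere, and Klrb1c among them was at 16.2 to 30.4 in Spl/LN with adjuvant/Fat1562 and at most 4.07 in the other groups. Of the same lists, Cdh5, Flt3 and Itgax stayed under 5 in all libraries. The part of these markers in the members' differences was not tested.

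These factors act at the level of the transcript. ZFP36 proteins bind AU-rich elements in the 3′ untranslated region (UTR) and bring in the CCR4-NOT deadenylase, the complex that removes the poly(A) tail. Regnases are endonucleases, Roquins recognize stem-loops in transcripts such as Icos and Tnf, and BTG proteins stimulate CCR4-NOT directly. In T cells they restrain cytokine transcripts and activation, and Zfp36 and Btg2 are themselves induced quickly after a cell is stimulated.

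The heptamer TATTTAT, the core that ZFP36 proteins bind (UAUUUAU in RNA), was counted in the longest annotated 3′ UTR of each member (GENCODE, GRCm38). It occurred 3 times in Zfp36, Zfp36l1, Zfp36l2 and Rc3h2, 2 times in Rc3h1, and 1 time in Btg2. It did not occur in the windows of Zc3h12a, Zc3h12d or Btg1. The 774 bases of the Zfp36 3′ UTR may be set against the other tested genes with a 3′ UTR at least as long, of which 17.3% held the heptamer in their first bases to that length. The corresponding share was 35.1% at the 1835 bases of Zfp36l1, 39.8% at the 2199 bases of Btg2 and 41.2% at the 2327 bases of Zc3h12d. It was 34.9% at the 1822 bases of Zfp36l2, 18.8% at the 856 of Zc3h12a and 59.2% at the 4166 of Btg1. At the longer 3′ UTRs of Rc3h2 (5331 bases) and Rc3h1 (7181 bases) it was 66.6% and 82.9%. A site of each of the 4 members that held it and were higher in VAT in both conditions is given here with the heptamer in capitals, 5′ to 3′ on the coding strand, to show where these letters lie in transcripts of the ZFP36 family itself and of Btg2.
Zfp36, chr7:28376926-28376954, minus strand: agattttatagTATTTATatatattgggt
Zfp36l1, chr12:80108422-80108450, minus strand: ttatcaaaacgTATTTATtgccaaactat
Zfp36l2, chr17:84184914-84184942, minus strand: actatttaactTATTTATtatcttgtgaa
Btg2, chr1:134077249-134077277, minus strand: aaatgaagagcTATTTATacatgtttttt
A match is a description of the letters and not evidence of binding.

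Zfp36, which encodes tristetraprolin, and Btg2 had the largest tissue differences of the members in mice given adjuvant alone. Zfp36 lies on chr7:28376784-28380253 (GRCm38, minus strand). It stood at 870, 681 and 809 normalized counts in Spl/LN and at 5916 and 5585 in VAT, so the groups were far apart. With adjuvant/Fat1562 it was at 824, 969 and 781 in Spl/LN and at 2255, 1669 and 1643 in VAT. All VAT libraries were above all Spl/LN libraries, and both VAT libraries from adjuvant alone were above all 3 from adjuvant/Fat1562. The difference between VAT and Spl/LN was 2.87 ± 0.14 (log2, SE; 7.31-fold; adjusted p = 1.35e-10, edgeR) with adjuvant alone and 1.11 ± 0.13 (2.16-fold; adjusted p = 7.25e-06) with adjuvant/Fat1562. In VAT, Zfp36 fell by 1.63 on the log2 scale with Fat1562 (SE 0.14, adjusted p = 9.04e-07, edgeR), and in Spl/LN the difference was 0.12 (95% interval -0.15 to 0.39, adjusted p = 0.667). The 2 effects of Fat1562 differed by -1.76 ± 0.19 (interaction, adjusted p = 5.09e-05, edgeR).

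Btg2, an antiproliferative activator of deadenylation (chr1:134075170-134079120, minus strand), followed the same course. It was at 726, 894 and 627 normalized counts in Spl/LN and at 5523 and 4705 in VAT after adjuvant alone. After adjuvant/Fat1562 it was at 950, 730 and 918 in Spl/LN and at 1586, 1606 and 1624 in VAT. The VAT libraries from adjuvant alone again lay above all others, and those from adjuvant/Fat1562 lay between them and the Spl/LN libraries. The tissue difference was 2.77 ± 0.14 (log2, SE; 6.83-fold; adjusted p = 1.49e-10, edgeR) with adjuvant alone and 0.89 ± 0.12 (1.85-fold; adjusted p = 6.55e-05) with adjuvant/Fat1562. In VAT, Btg2 fell by 1.67 on the log2 scale with Fat1562 (SE 0.13, adjusted p = 5.75e-07, edgeR), against a difference of 0.21 in Spl/LN (95% interval -0.05 to 0.47, adjusted p = 0.395). The interaction was -1.88 ± 0.18 (adjusted p = 1.93e-05, edgeR). The tissue comparison with adjuvant alone and the Fat1562 comparison in VAT share the same 2 VAT libraries, so the rise and the fall of both genes are not independent. Without the library high in B or plasma cell markers, the tissue difference was 2.91 for Zfp36 and 2.88 for Btg2, and the effect of Fat1562 in VAT was -1.67 and -1.78.

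Zc3h12d, the gene of Regnase-4 (chr10:7832470-7870396, plus strand), went the other way. It was at 957, 957 and 831 normalized counts in Spl/LN and at 527 and 595 in VAT after adjuvant alone. After adjuvant/Fat1562 it was at 924, 883 and 850 in Spl/LN and at 1596, 1532 and 1302 in VAT. VAT libraries were thus below all Spl/LN libraries with adjuvant alone and above all of them with adjuvant/Fat1562. The tissue difference was -0.71 ± 0.12 (log2, SE; adjusted p = 0.000511, edgeR) with adjuvant alone and 0.74 ± 0.10 (adjusted p = 8.22e-05) with adjuvant/Fat1562. In VAT, Zc3h12d rose with Fat1562 by 1.40 ± 0.12 (2.63-fold; adjusted p = 1.76e-06, edgeR). In Spl/LN the difference was -0.05 (95% interval -0.27 to 0.17, adjusted p = 0.861), and the interaction was 1.44 ± 0.16 (adjusted p = 7.52e-05, edgeR). Without VAT library 2 from adjuvant alone, the tissue difference was -0.80 and the effect of Fat1562 in VAT 1.49.

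**Figure D1:**
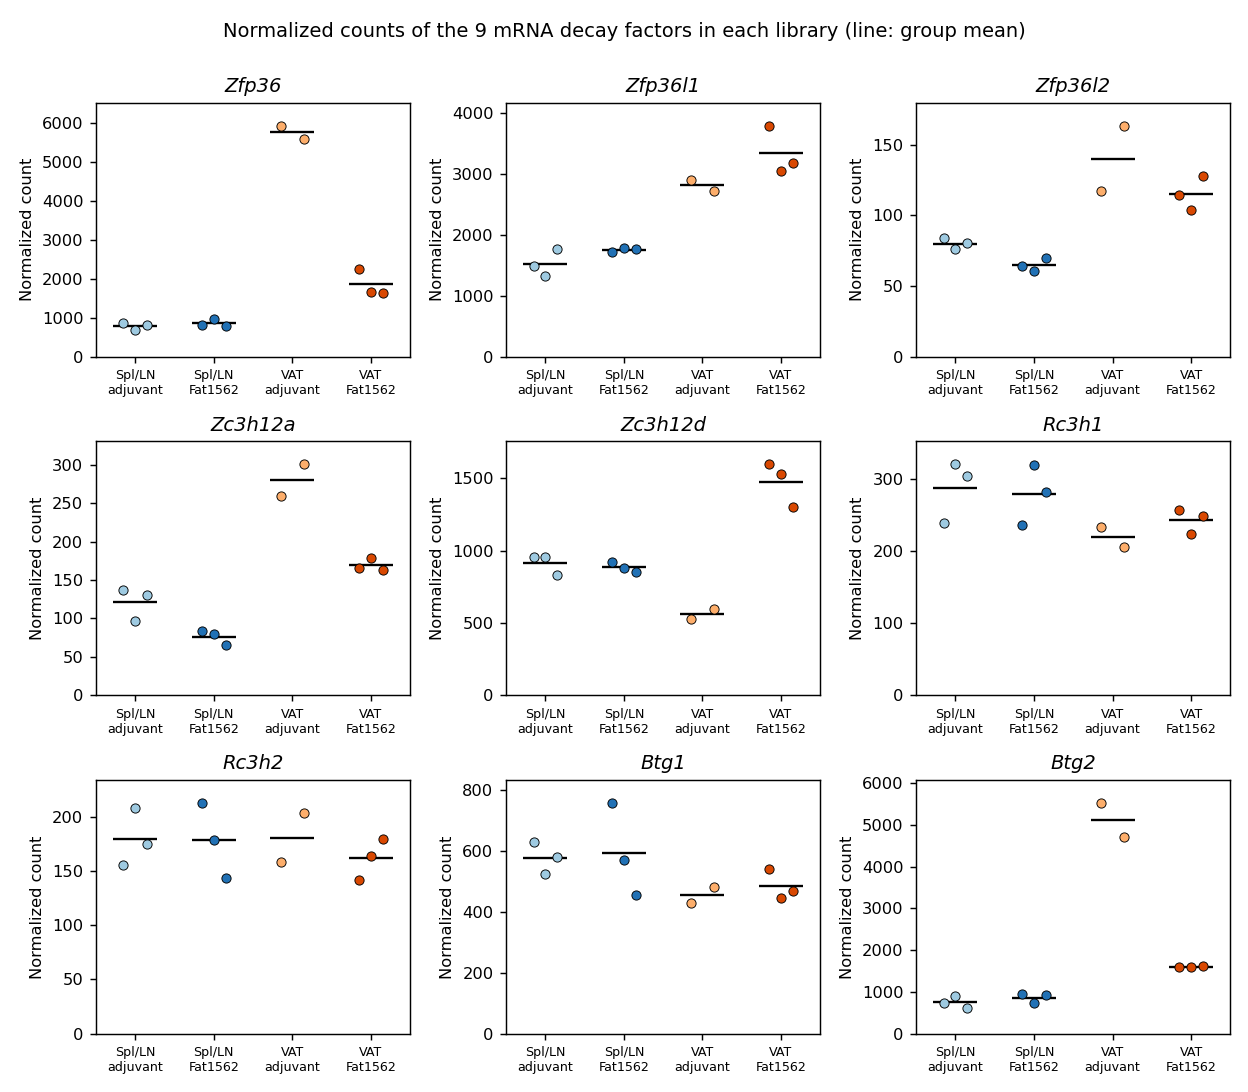
Normalized counts (y axis, linear, from 0) of the 9 mRNA decay factors in the 11 libraries by group (x axis), each point a library and each line a group mean. Zfp36 and Btg2 were highest in the 2 VAT libraries from adjuvant alone, Zc3h12d was lowest there and highest in VAT with adjuvant/Fat1562, and Rc3h2 was at 142 to 213 in all libraries.

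The promoters of Zfp36 and Btg2 are shown because these genes moved together, and both were read from RefSeq (GRCm38.p6, from 250 bases before to 50 after the start). The table held 8 of the 9 members, and the missing entry was Zfp36l2. The motifs searched on both strands were CRE (TGACGTCA), AP-1 (TGANTCA), the EGR site (GCGNGGGCG), the CArG box and the NF-kB site, and matches are in capitals.
Zfp36, chr7:28379179-28379478, minus strand: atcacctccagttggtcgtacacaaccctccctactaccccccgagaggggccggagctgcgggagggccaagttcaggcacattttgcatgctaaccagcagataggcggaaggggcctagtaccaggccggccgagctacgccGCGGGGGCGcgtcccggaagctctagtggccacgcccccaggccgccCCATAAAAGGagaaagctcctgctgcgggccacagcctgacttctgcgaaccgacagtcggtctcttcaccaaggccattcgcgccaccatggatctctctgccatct
Btg2, chr1:134079106-134079405, minus strand: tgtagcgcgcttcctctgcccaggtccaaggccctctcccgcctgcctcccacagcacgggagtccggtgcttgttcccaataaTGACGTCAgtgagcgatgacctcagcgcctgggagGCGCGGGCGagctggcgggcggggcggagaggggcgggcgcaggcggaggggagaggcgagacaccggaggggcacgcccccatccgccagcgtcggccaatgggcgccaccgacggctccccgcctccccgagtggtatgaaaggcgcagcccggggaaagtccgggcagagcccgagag
Zfp36 held an EGR site whose first base is at -105 and a CArG box at -58, and Btg2 held a CRE at -166 and an EGR site at -131, where -1 is the base before the start. The Zfp36 window lies inside the GENCODE span of the gene, which begins further upstream. Of the 9219 tested genes with a promoter in the table, 10.1% held an EGR site, 1.24% a CArG box, 3.41% a CRE, 4.66% an AP-1 site and 9.99% an NF-kB site. An AP-1 site was found in Zfp36l1 (-129) and Rc3h1 (-133), and none of these letters in Zc3h12a, Zc3h12d, Rc3h2 or Btg1. No motif overlapped another in these windows, and the matches do not show binding.

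Zc3h12a, which encodes Regnase-1, a nuclease that cuts cytokine transcripts (chr4:125118423-125127840, minus strand), was higher in VAT whatever the mice received. It stood at 137, 96.9 and 131 normalized counts in Spl/LN and at 259 and 301 in VAT with adjuvant alone, and at 83.9, 80.2 and 64.8 in Spl/LN and 166, 179 and 163 in VAT with adjuvant/Fat1562. The tissues did not overlap in either condition. The tissue difference was 1.20 ± 0.21 (log2, SE; adjusted p = 0.000490, edgeR) with adjuvant alone and 1.15 ± 0.19 (adjusted p = 0.000481) with adjuvant/Fat1562. The first was 1.09 without VAT library 2 from adjuvant alone (adjusted p = 0.0129, edgeR). With Fat1562 it fell by 0.72 on the log2 scale in VAT (SE 0.21, adjusted p = 0.0369, edgeR), a call that was lost without any 1 of the 5 VAT libraries (adjusted p between 0.0842 and 0.264). In Spl/LN the difference was -0.68 ± 0.20 (adjusted p = 0.0656), and there too the groups did not overlap. The interaction was -0.05 (95% interval -0.65 to 0.56, adjusted p = 0.965), which does not show that the 2 effects of Fat1562 were alike.

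Zfp36l1 (chr12:80107754-80113013, minus strand) and Zfp36l2 (chr17:84183931-84187947, minus strand), the paralogs that hold developing lymphocytes quiescent, were also higher in VAT in both conditions. Zfp36l1 was at 1485, 1321 and 1762 normalized counts in Spl/LN and at 2912 and 2725 in VAT with adjuvant alone, and at 1716, 1790 and 1777 in Spl/LN and 3793, 3058 and 3191 in VAT with adjuvant/Fat1562. All VAT libraries were above all Spl/LN libraries. The tissue difference was 0.89 ± 0.12 (log2, SE; adjusted p = 2.97e-05, edgeR) and 0.93 ± 0.10 (adjusted p = 7.40e-06) in the same order of conditions, and the first was 0.93 without VAT library 2 from adjuvant alone (adjusted p = 0.000325, edgeR). Its difference with Fat1562 was 0.25 in VAT (adjusted p = 0.240) and 0.21 in Spl/LN (adjusted p = 0.307), and the interaction was 0.04 (95% interval -0.29 to 0.37). The exons of Zfp36l1 share 55.9% of their bases with the antisense lincRNA Gm26669, whose own counts were 2 to 12 a library. Since it is not stated whether counting used strand, reads of the pair cannot be told apart.

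Zfp36l2, the ZFP36 member with the lowest level per kb, was at 83.9, 76.0 and 80.3 normalized counts in Spl/LN and 117 and 163 in VAT after adjuvant alone. After adjuvant/Fat1562 it was at 63.9, 60.9 and 69.7 in Spl/LN and at 115, 104 and 128 in VAT, again without overlap of the tissues. The tissue difference was 0.80 ± 0.24 (log2, SE; adjusted p = 0.0283, edgeR) with adjuvant alone and 0.83 ± 0.22 (adjusted p = 0.0157) with adjuvant/Fat1562. The first call was lost without Spl/LN library 2 (adjusted p = 0.0643) or VAT library 2 (adjusted p = 0.317) of adjuvant alone, by edgeR. The second was lost without Spl/LN library 1 (adjusted p = 0.0522), Spl/LN library 2 (adjusted p = 0.0607) or VAT library 3 (adjusted p = 0.0629) of adjuvant/Fat1562, by the same test. Its differences with Fat1562 were -0.28 in VAT and -0.30 in Spl/LN (adjusted p = 0.563 and 0.512).

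Rc3h1, Rc3h2 and Btg1 did not pass the test in any comparison. Rc3h1 (Roquin-1; chr1:160906418-160974978, plus strand) was at 236 to 320 normalized counts in Spl/LN and 206 to 257 in VAT. Its largest estimate was -0.39 ± 0.18 between the tissues with adjuvant alone (log2, SE; adjusted p = 0.179, edgeR). Rc3h2 (Roquin-2; chr2:37370069-37422903, minus strand) had estimates between -0.16 and 0.01, with a 95% interval of -0.45 to 0.47 for the tissue difference with adjuvant alone. Btg1 (chr10:96617006-96622809, plus strand), the quiescence-linked paralog of Btg2, was at 456 to 758 in Spl/LN and 430 to 543 in VAT. Its tissue difference with adjuvant alone was -0.35 (95% interval -0.72 to 0.03, adjusted p = 0.215, edgeR).

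Counted over the members, 6 of 9 passed the test between the tissues with adjuvant alone, 5 higher and 1 lower in VAT, where 16.3% of all tested genes passed, 9.09% higher and 7.18% lower. With adjuvant/Fat1562, 6 of 9 were higher in VAT and 0 lower, beside 15.0% of all genes, 8.26% higher and 6.73% lower. With Fat1562 in VAT, 1 of 9 rose and 3 fell, beside 8.30% of all genes, 4.33% higher and 3.97% lower. In Spl/LN 0 of 9 passed by edgeR, beside 3.98% of all genes, 2.58% higher and 1.40% lower. At an unadjusted p under 0.05 there was 1 member in Spl/LN, Zc3h12a, which DESeq2 also called. The interaction passed for 3 of 9, 1 positive and 2 negative, beside 3.72% of all genes, 1.70% positive and 2.02% negative. The median member differed by 0.80 and 0.83 between the tissues, by -0.16 with Fat1562 in VAT and by -0.01 in Spl/LN (log2), beside medians of all genes between -0.03 and 0.01. Since these are bulk libraries, a level per cell and the share of cells that hold a transcript cannot be told apart.

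**Figure D2:**
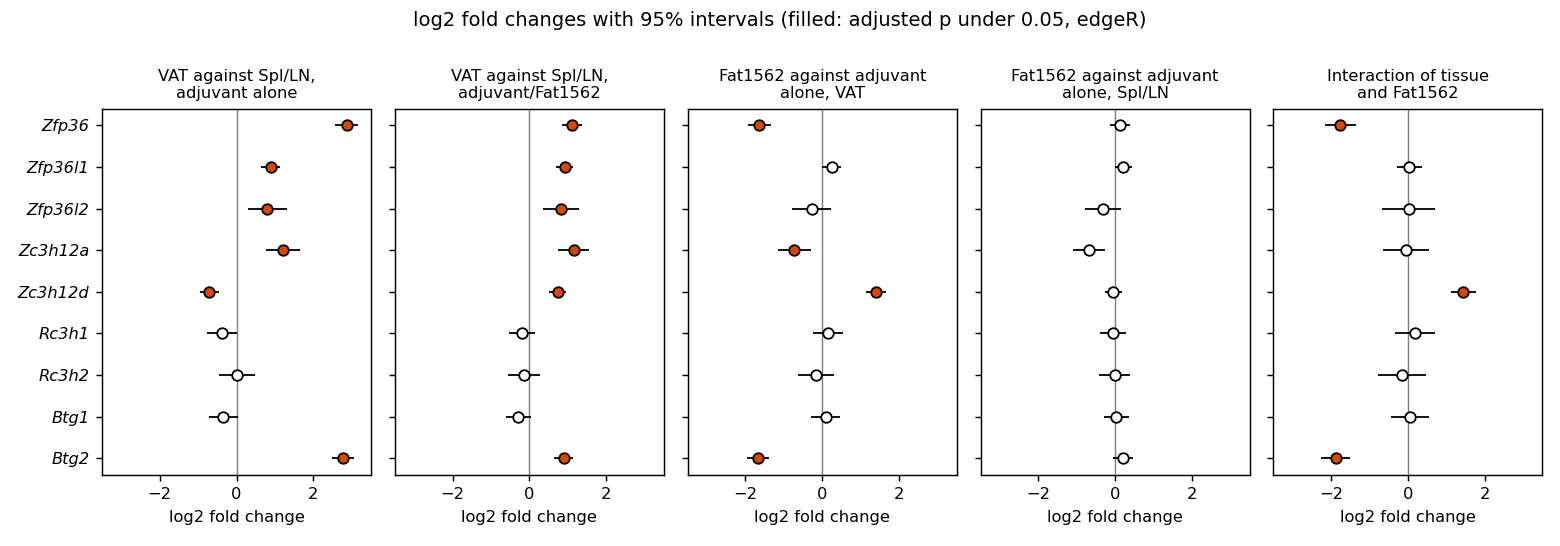
log2 fold changes (x axis) of the 9 members with 95% intervals in the 4 comparisons and the interaction, filled where the adjusted p of edgeR was under 0.05. The intervals of Zfp36 and Btg2 lie around 2.87 and 2.77 between the tissues with adjuvant alone and around -1.63 and -1.67 with Fat1562 in VAT, while Zc3h12d lies at -0.71 and 1.40, and no marker is filled for Spl/LN.

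Levels were compared between members as normalized counts per kb of merged exons. For Zfp36l1 this length includes the 55.9% of exon bases shared with Gm26669. Whether reads there were counted is not stated, so its level, its place and the shares within the ZFP36 family are uncertain. In Spl/LN with adjuvant alone the order of levels per kb was Zfp36l1 (509 ± 74.6), Btg2 (273 ± 49.1), Zfp36 (227 ± 27.8), Zc3h12d (224 ± 17.8), Btg1 (110 ± 9.94), Zc3h12a (42.1 ± 7.48), Rc3h1 (25.4 ± 3.76), Zfp36l2 (22.7 ± 1.12) and Rc3h2 (9.14 ± 1.37; SD, n = 3). The ranges of Btg2, Zfp36 and Zc3h12d overlapped, as did those of Rc3h1 and Zfp36l2. In Spl/LN with adjuvant/Fat1562 the order was the same, with Zfp36l1 at 589 ± 13.2 and Rc3h2 at 9.08 ± 1.77 per kb, and Zc3h12a now overlapped Rc3h1.

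In VAT with adjuvant alone Btg2 (1864 ± 211) and Zfp36 (1657 ± 67.4) led the levels per kb, ahead of Zfp36l1 (943 ± 44.3; SD, n = 2). There followed Zc3h12d (137 ± 11.7), Zc3h12a (97.1 ± 10.2), Btg1 (86.4 ± 6.83), Zfp36l2 (39.7 ± 9.27), Rc3h1 (19.4 ± 1.71) and Rc3h2 (9.21 ± 1.62), and the ranges of Zc3h12a and Btg1 overlapped. By the longest annotated transcript in place of merged exons, Zfp36 (2061 per kb) came before Btg2, as it did in Spl/LN with adjuvant alone and in VAT with adjuvant/Fat1562. On that scale Rc3h2 stood at 18.1 to 20.2 per kb as a group mean and was not last in 2 groups. It came before Zfp36l2 in Spl/LN with adjuvant/Fat1562 and before Rc3h1 in VAT with adjuvant alone. In VAT with adjuvant/Fat1562 Zfp36l1 (1120 ± 131 per kb; SD, n = 3) led again, and Btg2 (585 ± 7.06) and Zfp36 (535 ± 99.9) overlapped. Zc3h12d (361 ± 37.8), Btg1 (92.2 ± 9.52), Zc3h12a (58.8 ± 2.93), Zfp36l2 (32.7 ± 3.38), Rc3h1 (21.5 ± 1.53) and Rc3h2 (8.24 ± 0.972) followed without overlap between neighbours.

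Within families, the VAT libraries from adjuvant alone had another make-up than the other groups. Zfp36 made up 30.0% ± 2.47 of the ZFP36 family's level per kb in Spl/LN with adjuvant alone and 31.6% ± 1.66 in VAT with adjuvant/Fat1562 (SD, n = 3 each), and 26.8% to 31.2% in Spl/LN with adjuvant/Fat1562. It made up 62.7% and 62.9% in VAT with adjuvant alone. Zc3h12a made up 41.1% and 41.8% of the Regnase pair in those libraries, and 9.77% to 18.2% in the other 9. The share of Btg2 in the BTG pair was 94.9% and 96.1% there, 84.9% to 87.4% in VAT with adjuvant/Fat1562 and 67.5% to 79.5% in Spl/LN. Rc3h1 made up 63.7% to 77.3% of the Roquin pair across all libraries. The groups overlapped, apart from adjuvant alone, where it was 72.7% to 75.1% in Spl/LN and 63.7% and 71.9% in VAT. These shares restate the levels above and were not tested again. Those of the ZFP36 family carry the limit given above for the length of Zfp36l1.

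**Figure D3:**
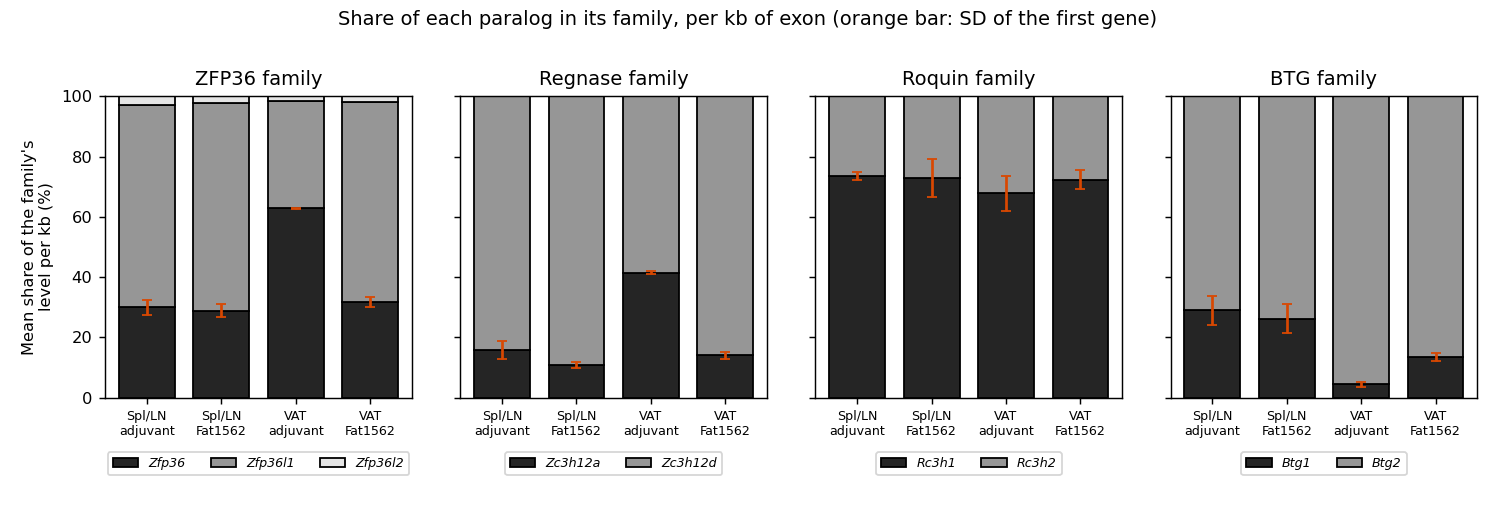
Mean share (y axis, %) of each paralog in its family's level per kb by group (x axis), stacked to 100, with the SD between libraries as an orange bar on the first gene. Zfp36 took 62.8% of its family and Zc3h12a 41.4% of the Regnase pair in VAT with adjuvant alone, against at most 31.6% and 15.9% as the mean of any other group.

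Few genes of the complexes through which these factors act passed the test between the tissues. The lists of deadenylases, decapping and 5′ to 3′ decay factors, exosome and nonsense-mediated decay factors held 55 tested genes. Between the tissues with adjuvant alone 2 of them were higher and 2 lower in VAT (7.27%, against 16.3% of all genes). The deadenylase Cnot6l (0.70 ± 0.13 on the log2 scale, SE) and the ubiquitin ligase Cnot4 (0.61 ± 0.17) were higher, and Cnot2 (-0.42 ± 0.11), a core subunit, was lower. Lsm4, part of the ring that promotes decapping and, in the nucleus, splicing, was the other lower gene (-1.35 ± 0.17), at 646 to 871 normalized counts in Spl/LN and 271 to 350 in VAT. With adjuvant/Fat1562 0 of the 55 passed between the tissues by edgeR, beside 15.0% of all genes. At an unadjusted p under 0.05 there were 2, beside 3551 of all 12932 genes. With Fat1562 in VAT Lsm4 (1.00 ± 0.17) and Lsm2 (0.60 ± 0.17) rose and Smg9 (-0.94 ± 0.20), of nonsense-mediated decay, fell. These made up 5.45% of the 55, beside 8.30% of all genes. At an unadjusted p under 0.05 there were 12, beside 2714 of all 12932 genes. In Spl/LN 0 passed by edgeR, beside 3.98% of all genes, and 7 were at an unadjusted p under 0.05, beside 2371 of all 12932 genes. Without VAT library 2 from adjuvant alone, the calls of Cnot4 (adjusted p = 0.148) and Cnot2 (0.0724) between the tissues and of Lsm2 (0.142) and Smg9 (0.0902) with Fat1562 in VAT were lost, by edgeR. Those of Cnot6l and Lsm4 were kept. The exosome nuclease Dis3, named after its values were seen, was not called in either comparison with all libraries. It was at -0.94 between the tissues (adjusted p = 0.0727, edgeR) and 0.73 with Fat1562 in VAT (adjusted p = 0.231). Without VAT library 2 from adjuvant alone these were -1.76 and 1.55, and both rest on the same 1 VAT library left in that group. The summed level of the 14 deadenylase genes was 5330 to 5982 normalized counts in Spl/LN and 5436 to 6086 in VAT.

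Among relatives of the members, 1 of 2 tested BTG/TOB genes was higher in VAT in both conditions, beside 9.09% and 8.26% of all genes. This was Tob2, which also binds the deadenylase, with a tissue difference of 1.88 ± 0.19 (log2, SE; adjusted p = 1.08e-06, edgeR) and 1.13 ± 0.17 (adjusted p = 0.000133). N4bp1, a nuclease of the same fold as the Regnases, was at 525 and 627 normalized counts in VAT with adjuvant alone and 796 to 997 with adjuvant/Fat1562. It was higher in VAT than in Spl/LN with adjuvant/Fat1562 (1.18 ± 0.14, log2, SE; adjusted p = 1.51e-05, edgeR) and was not called between the tissues with adjuvant alone. It rose with Fat1562 in VAT by 0.68 ± 0.16 (adjusted p = 0.0126, edgeR) and had an interaction of 0.92 ± 0.21 (adjusted p = 0.0228). Of 8 other AU-rich element binding proteins, Arid5a, which shields transcripts such as Il6 from Regnase-1, was lower in VAT in both conditions, by -0.55 ± 0.16 and -1.31 ± 0.14, and fell with Fat1562 in VAT (-0.93 ± 0.16; log2, SE). Without VAT library 2 from adjuvant alone its first call was lost (adjusted p = 0.0962, edgeR), and the fall with Fat1562 in VAT was kept (adjusted p = 0.0172). Hnrnpd was higher in VAT with adjuvant/Fat1562 (0.63 ± 0.18). Of all genes, 7.18% were lower in VAT with adjuvant alone and 6.73% with adjuvant/Fat1562. With Fat1562 in VAT 4.33% of all genes rose and 3.97% fell.

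Transcripts known as targets of ZFP36, Regnase-1 or Roquin in T cells were mostly higher in VAT. Of 26 listed, 21 were tested. With adjuvant alone 16 were higher and 2 lower in VAT, beside 9.09% and 7.18% of all genes. With adjuvant/Fat1562 15 were higher and 0 lower, beside 8.26% and 6.73%. The median difference of the list was 1.51 and 0.90 (log2), beside -0.03 and -0.01 for all genes. Tnfaip3, the inhibitor of NF-kB known as A20, had a tissue difference of 3.27 ± 0.13 with adjuvant alone, Cd69, a receptor of recently activated cells, of 2.52 ± 0.13, and Nfkbid of 2.61 ± 0.14. With Fat1562 in VAT 2 of the 21 rose and 9 fell (median -0.34), among them Cd69 (-1.79 ± 0.13), Nfkbid (-1.14 ± 0.14), Tnf (-1.45 ± 0.23) and Gata3 (-0.82 ± 0.13). In Spl/LN 1 rose and 2 fell. Of all genes, 4.33% rose and 3.97% fell with Fat1562 in VAT, and 2.58% and 1.40% in Spl/LN. Without the VAT library high in B or plasma cell markers, the tissue differences of Tnfaip3, Cd69 and Nfkbid with adjuvant alone were 3.36, 2.70 and 2.68. With Fat1562 in VAT, Cd69, Nfkbid, Tnf and Gata3 were then at -1.97, -1.21, -1.79 and -0.75. The 2 that rose were at 0.45 and 0.34, against 0.61 and 0.34 with all libraries. The list shares 2 genes with the immediate early list and 2 with the Treg markers.

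Immediate early genes, the transcripts induced first after a cell is stimulated, moved in the same comparisons as Zfp36 and Btg2. The 24 listed genes in the table, which do not include any member, summed to 11587 to 11928 normalized counts in Spl/LN with adjuvant alone and to 9366 to 10931 with adjuvant/Fat1562. They summed to 116220 and 137745 in VAT with adjuvant alone and to 52562 to 64482 in VAT with adjuvant/Fat1562. Between the tissues 18 were higher and 2 lower in VAT with adjuvant alone, beside 9.09% and 7.18% of all genes. With adjuvant/Fat1562 they were 19 and 2, beside 8.26% and 6.73%. Junb had a tissue difference of 3.52 ± 0.08, Dusp1 of 4.19 ± 0.14, Fosl2 of 6.33 ± 0.24 and Gadd45b of 4.08 ± 0.16 (log2, SE, adjuvant alone). With Fat1562 in VAT 2 rose and 13 fell, among them Junb (-1.17 ± 0.08), Egr1 (-2.23 ± 0.20), Dusp1 (-1.28 ± 0.14) and Gadd45b (-1.38 ± 0.15). In Spl/LN 2 rose and 6 fell, where Zfp36 and Btg2 had estimates of 0.12 and 0.21. Of all genes, 4.33% rose and 3.97% fell with Fat1562 in VAT, and 2.58% and 1.40% in Spl/LN. The heat shock list (11 genes) had 4 genes higher in VAT after adjuvant alone and 6 after adjuvant/Fat1562. With Fat1562 in VAT it had 0 called by edgeR, and in Spl/LN 3 rose. In VAT 6 were at an unadjusted p under 0.05, beside 2714 of all 12932 genes.

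The methods describe VAT as minced and digested with warm collagenase, a step not described for Spl/LN, so tissue and digestion cannot be told apart in the tissue comparisons. Both VAT groups are described with that digestion. The part of the immediate early or heat shock genes' levels in the members' differences was not tested. Without VAT library 2 from adjuvant alone, the tissue differences of Junb, Dusp1, Fosl2 and Gadd45b were 3.60, 4.35, 6.30 and 4.23. With Fat1562 in VAT, Junb, Egr1, Dusp1 and Gadd45b were then at -1.25, -1.93, -1.44 and -1.52. The 2 that rose were at 2.83 and 1.19. Of the heat shock genes, Dnaja1, Hspa8, Hsp90ab1 and Hspa1a had tissue differences of 1.55, 0.83, 0.69 and 3.44, against 1.53, 0.78, 0.61 and 4.12 with all libraries.

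**Figure D4:**
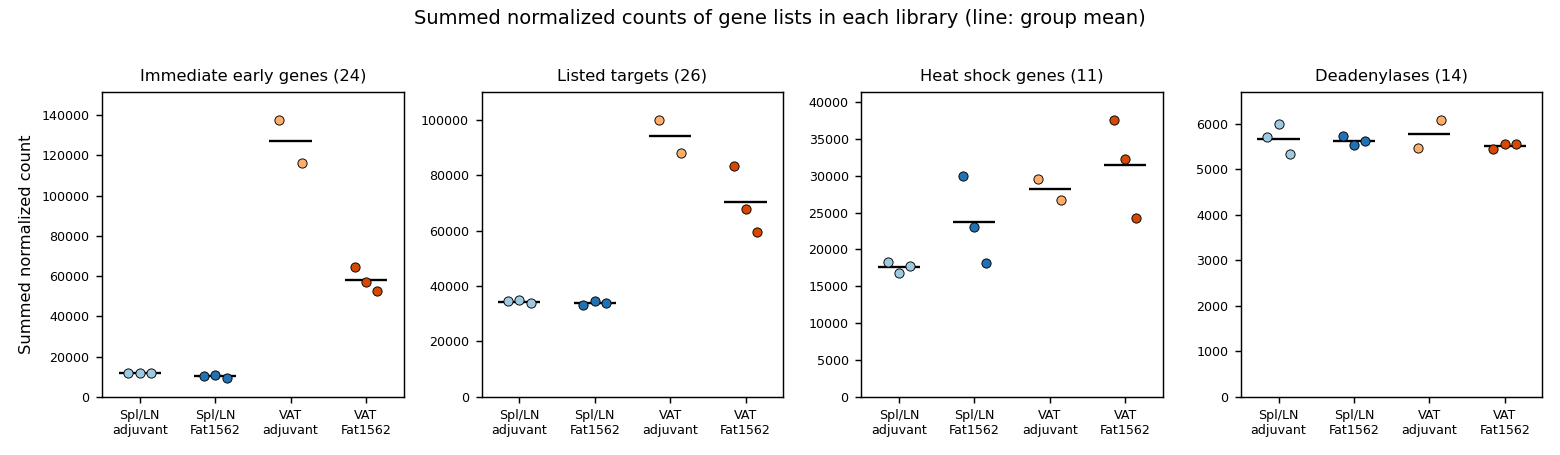
Summed normalized counts (y axis, linear, from 0) of 4 gene lists in the 11 libraries by group (x axis), each point a library and each line a group mean. Immediate early genes reached 116220 and 137745 in VAT with adjuvant alone against 52562 to 64482 with adjuvant/Fat1562, while the 14 deadenylase genes stayed between 5330 and 6086 in all libraries.

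The genes most like each member across the 11 libraries were found by Pearson's r of log2(normalized count + 1) among the 9595 genes whose mean exceeded 50 in 1 or more groups. For Zfp36 they were Zc3hav1 (r = 0.991), an antiviral zinc finger protein that also directs RNA decay, and Rora (r = 0.987), a nuclear receptor. For Btg2 they were Dusp10 (r = 0.976), a phosphatase of stress kinases, and Ccnl1 (r = 0.969), and Zfp36 and Btg2 were at r = 0.967 with each other. Zc3h12d was most like Prf1 (r = 0.950), the gene of perforin, and Cenpk (r = 0.943), a centromere protein. Zfp36l1 was most like Snx18 (r = 0.983) and Cerk (r = 0.981), Zfp36l2 like Dgat2 (r = 0.976) and Spty2d1 (r = 0.953), and Zc3h12a like Gm26885 (r = 0.966) and Dkk3 (r = 0.964). These points share their groups and libraries, so r mainly follows the differences between groups and is given as a description.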

How the data were processed

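The authors deposited 1 table of raw counts (whole numbers, not normalized) for 52997 genes by symbol, from Smart-seq2 libraries of 1000 sorted cells read as pairs of 38 bases. The submitters' processing notes name STAR 2.5.4, featureCounts and mm10. The study's methods name Cuffquant and a filter on expression. The annotation and the strand setting are not given in the sources used here. Group and replicate came from the labels, which matched every column. The methods call the samples biological replicates, and whether each came from 1 mouse or a pool is not stated.

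Counts were scaled to equal library totals, and the 12932 genes whose mean exceeded 10 in 1 or more groups were kept. They were tested by the quasi-likelihood method of edgeR 4.0.16 (R 4.3.3, TMM), with all 11 libraries and the 4 groups in 1 model. Calls were made below 0.05 after Benjamini-Hochberg adjustment across the kept genes. Normalized counts are counts over the TMM-scaled library size, brought to the mean library size, and their common biological coefficient of variation was 19.1%. Standard errors come from the fit, and 95% intervals use its degrees of freedom. Alternatives were DESeq2 1.42.0, limma 3.58.1 (voom, quantile), median-of-ratios size factors, other filters, a replicate block, fits of only the groups compared, and each library left out. The script was tested on simulated data. Molecular identifiers are not named, so errors do not cover molecules lost before amplification. The members and gene lists were chosen with earlier results of these data known. All 9 members were named, and of each list at most 4 called genes with the smallest adjusted p, with others named as checks of the cells. Positions are from GENCODE and RefSeq on GRCm38, the build that mm10 names.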

Additional observations from a re-analysis of the deposited data

Results flagged for a closer look

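The effect of Fat1562 differed between VAT and Spl/LN by the interaction test for 3 of the 9 members. The difference of the log2 effects was -1.76 for Zfp36, -1.88 for Btg2 and 1.44 for Zc3h12d (edgeR, adjusted p = 5.09e-05, 1.93e-05 and 7.52e-05), and all 3 calls held without any 1 of the 11 libraries.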

How the results depend on the processing

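Of 45 results (9 members in 4 comparisons and the interaction), 19 were called. Of these, 16 kept their call and direction under every alternative run, and none of the 19 changed sign. The other 3 lost the call somewhere. Zfp36l2 between the tissues lost it without a filter on low counts (adjusted p = 0.119 and 0.0614, edgeR), with only the groups compared in the fit with adjuvant alone (0.104), and without the libraries named above. Zc3h12a with Fat1562 in VAT lost it without a filter (0.0852), under the replicate block (0.0762) and without each VAT library. Of the 26 not called, Zc3h12a in Spl/LN passed by DESeq2 (1 member called, adjusted p = 0.0334), with a mean above 50 (1 member, edgeR adjusted p = 0.0498) and without Spl/LN library 2 from adjuvant alone (edgeR adjusted p = 0.0380), so that members called ran from 0 to 1 with 1 library of the groups compared left out. The cause of these changes was not tested, beyond the smaller number of samples or larger number of genes that a setting itself brings.

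Genes called in Spl/LN were 515, against 793 by DESeq2 and 793 without a filter, and the interaction had 481 against 776 by DESeq2. With 1 library of the groups compared left out they ran from 1259 to 2114 (tissues, adjuvant alone; lowest without VAT library 1), 1289 to 1704 (tissues, adjuvant/Fat1562; lowest without VAT library 2), 508 to 827 (Fat1562 in VAT; lowest without VAT library 2 from adjuvant alone), 190 to 487 (Spl/LN; lowest without library 2 from adjuvant/Fat1562) and 240 to 576 (interaction; lowest without VAT library 1 from adjuvant alone). By limma with quantile normalization 54.8% of the genes called in Spl/LN were higher, against 64.9% by edgeR.

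Sign changes were seen in 11 results, none of them called. Under the replicate block Rc3h2 between the tissues with adjuvant alone was -0.018 and the interaction of Zfp36l2 was -0.016. By limma Btg1 in Spl/LN was -0.041 and the interaction of Zfp36l2 was -0.0029. With 1 library of the groups compared left out, Rc3h2 ran from -0.18 to 0.18 and -0.27 to 0.014 between the tissues, -0.33 to 0.034 in VAT, -0.16 to 0.13 in Spl/LN and -0.31 to 0.048 in the interaction. In Spl/LN Rc3h1 ran from -0.16 to 0.061 and Btg1 from -0.18 to 0.20. The interaction ran from -0.083 to 0.13 for Zfp36l1, -0.19 to 0.29 for Zfp36l2, -0.15 to 0.087 for Zc3h12a and -0.10 to 0.27 for Btg1.

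Samples with the same replicate number did not deviate together (r from -0.04 to 0.06 over 15 pairs, none over 0.1), and nothing ties a number to a mouse. The replicate block changed no member's call apart from Zc3h12a in VAT. Between the tissues with adjuvant/Fat1562, each of the 3 libraries correlated best with its own number (r from 0.03 to 0.06), a hint from the data only. With adjuvant alone, Spl/LN libraries 1 and 2 also correlated best with their own number in VAT (r = 0.04 and 0.03). There the 2 VAT libraries give values of opposite sign. The fit of VAT with adjuvant alone rests on 2 libraries, and where 1 of them is left out, the other is assumed to vary like the other groups.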
